A study of Mus musculus with 6 samples.

Results

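The SNARE fusion machinery is described here by 7 genes of the nerve terminal: Snap25, Vamp1, Vamp2, Stx1a, Nsf, Napa and Napb. Their probes were found by gene name among the non-control probes of the array, which gave 12 probes of 55681, and 10 of these were well above background and could be tested. Total RNA of mouse brain synaptosomes, the pinched-off nerve terminals isolated from homogenised brain, was read on 1 one-colour array per sample. The 3 knock-in (KI) samples are set against 3 wild-type (WT) samples. The title of the series concerns FMR1 and FXTAS, a late-onset tremor and ataxia disorder, but the labels name neither the knocked-in allele nor the strain or age of the mice. The genotype field of the KI samples reads knock-out, whereas the sample descriptions read KI and the design text gives knock-in, which is used here. Nothing says whether samples came from separate animals, so each p-value reflects only the scatter among these 6 samples, part or all of which may be technical.

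Synaptic vesicles release transmitter when SNARE proteins of the vesicle and of the plasma membrane zip into a tight helical bundle that pulls both membranes together. The vesicle contributes synaptobrevin, encoded by Vamp2 in most forebrain synapses and by Vamp1 in many brainstem and spinal synapses. The plasma membrane contributes syntaxin 1, one form of which is encoded by Stx1a, and SNAP-25, encoded by Snap25. After fusion the spent bundle is pulled apart by the ATPase NSF (Nsf), which is held on it by the adaptors alpha-SNAP (Napa) and beta-SNAP (Napb). Despite the similar names, the adaptors and SNAP-25 are unrelated proteins.

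RefSeq promoter sequences were at hand for 5 of the 7 genes, namely Stx1a, Vamp1, Napa, Nsf and Napb. The 250 bases upstream of each start were searched on both strands for the GC box GGGCGG and the E-box CACGTG. The GC box occurred upstream of 3 of the 5 genes, and upstream of 32.7% of all 32851 promoters in the table. The E-box occurred upstream of 2 of the 5, and of 6.02% of all promoters. Another motif, the cyclic AMP element TGACGTCA, was upstream of 0 of the 5 and of 1.55% of all. The windows that follow hold 30 bases each, on assembly GRCm38.p6 and 5′ to 3′ on the strand of the gene, with the motif in capitals. Vamp1 and Stx1a are shown because their main probes varied most between arrays, Napa because with the main scaling it alone separated the groups, and Nsf as the partner of Napa. Napa held 3 E-box matches, and the one nearest the start, 29 bases upstream of it, is given. A match is a description of the letters and not evidence of binding.
Vamp1, chr6:125215461-125215490, GC box: ctgtagttgtggGGGCGGgactagcaggcc
Stx1a, chr5:135023396-135023425, GC box: aggcggagccctGGGCGGgatatatccggg
Napa, chr7:16098539-16098568, E-box: gttcgcagggttCACGTGgggtggcaggcc
Nsf, chr11:103954213-103954242, E-box: ccattaaaaggcCACGTGgccagctttgtg

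The arrays differed in brightness, so each processed signal is also given as log2 relative to the 75th percentile of its array, which was 883 to 910 in KI and 578 to 823 in WT. The 3 KI arrays and WT replicate 3 were on slide 1, and WT replicates 1 and 2 on slide 2. On each array 52.9% to 55.7% of the non-control spots exceeded background clearly, 0 were saturated, and no member spot was marked as an outlier. All 10 neuron and synapse markers were well above background on at least 3 arrays, with a summed level of 537 to 613 times the 75th percentile in KI and 537 to 662 in WT. The 8 astrocyte, 8 oligodendrocyte, 8 microglia and 8 endothelial markers were also detected, so the preparations were not of neuronal RNA alone. Summed astrocyte markers were at 520 to 543 in KI and 550 to 621 in WT, but single astrocyte markers were split, 4 higher and 4 lower in KI, with a median log2 difference of -0.04 against -0.05 over all genes. Their part in the results was not tested. In bulk RNA, fewer terminals of a type and less RNA per terminal cannot be told apart.

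None of the fusion genes passed the test. Of the 10 member probes, 9 read lower in KI and 1 higher, where 58.3% of all 29318 probes read lower. By limma's adjusted p of 0.05 over 29318 probes 0 passed, where 0.00682% of all probes did, and 0 had an unadjusted p under 0.05, where 10.4% of all did. All 7 main probes, the brightest of each gene, read lower in KI, where 59.1% of 20975 genes did. That count depended on the scaling and on single arrays: it was 5 of 7 with quantile and with cyclic loess normalization, 4 of 7 with the authors' values, and 6 of 7 without KI replicate 1 or without WT replicate 2. With the authors' values 5 of the 10 probes read lower. The share of all genes that read lower is not given for these alternatives. The median log2 difference (KI minus WT) of the main probes was -0.17, against -0.05 over all genes, and that of all 10 probes was -0.12. For the main probes it was -0.09 with quantile and with the authors' values, and between -0.32 without WT replicate 1 and -0.07 without WT replicate 2. Over all kept probes the median was -0.02 with quantile and -0.009 with the authors' values. It was -0.07 without WT replicate 1 and -0.02 without WT replicate 2. The groups were without overlap for 1 of the 10 probes, where 19.9% of all probes showed this and 12% did so as lower in KI. The shares of the members are thus to be read against a background in which, with the main scaling, most probes read slightly lower in KI.

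**Figure D1:**
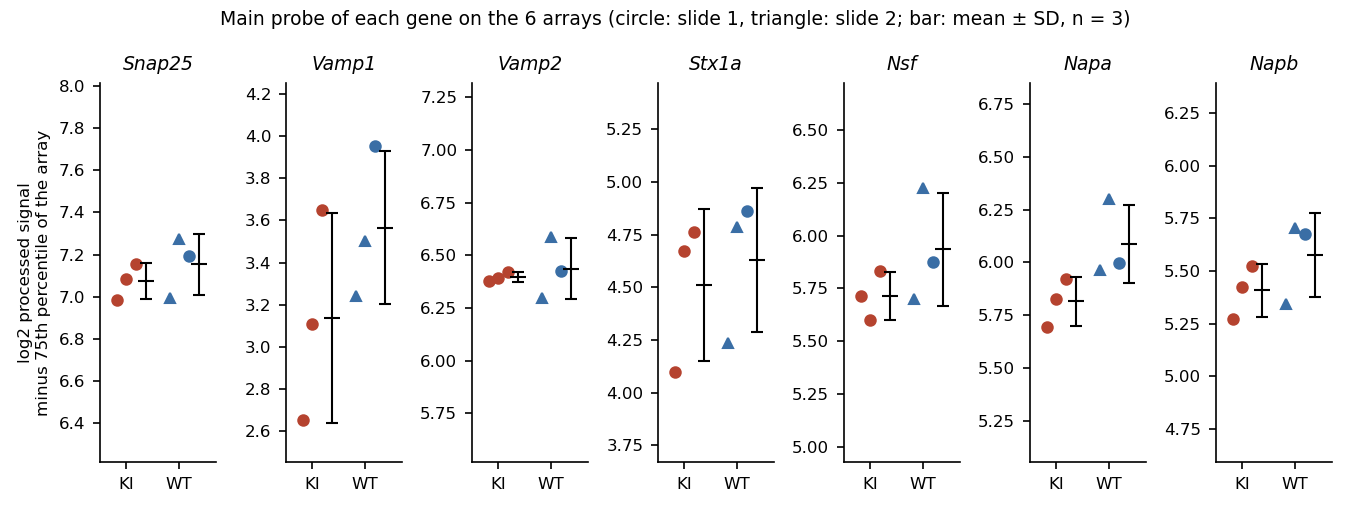
Log2 processed signal relative to the 75th percentile of the array for the main probe of each of the 7 genes, with KI arrays left of WT arrays. Points are single arrays, circles on slide 1 and triangles on slide 2, and black bars are the mean ± SD of 3 arrays; every panel spans the same height, and the groups overlap in every gene except Napa.

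Among the vesicle SNAREs, Vamp2 was the steadier. Its main probe, on chromosome 11 at 68905527 to 68905586 of build mm9, starts at base 1807 of the transcript. Whether a probe lies in coding sequence or in a UTR was not analysed here. It had processed signals of 73529, 76300 and 78057 in KI replicates 1 to 3, against 45445, 55807 and 70797 in WT replicates 1 to 3. Scaled to the array these are log2 values of 6.38, 6.39 and 6.42 in KI and 6.30, 6.59 and 6.43 in WT. The KI arrays fell inside the WT range, and the groups did not differ beyond their spread. The log2 difference was -0.04 (SE 0.11, 95% interval -0.31 to 0.23), with limma's adjusted p = 0.892, and its sign was positive with quantile, cyclic loess and the authors' values. An interval of this width still includes a fall to 0.806 of WT and a 1.18-fold rise.

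Vamp1 varied most of the 7 main probes. Its probe lies on chromosome 6 at 125171818 to 125171877. The processed signals were 5555, 7850 and 11417 in KI and 5468, 6580 and 12761 in WT. On the scaled log2 axis KI read 2.65, 3.11 and 3.65, against 3.24, 3.50 and 3.96 in WT. KI replicate 1 was the lowest array and WT replicate 3 the highest, and the groups overlapped. KI averaged 3.14 ± 0.50 and WT 3.57 ± 0.36 (SD, n = 3 each), a log2 difference of -0.43 (SE 0.29, limma's adjusted p = 0.574), or 0.743 of WT. The size rested on single arrays: it was -0.19 without KI replicate 1, -0.23 without WT replicate 3 and -0.68 without KI replicate 3. On slide 1, which sets the KI arrays against WT replicate 3 alone, it was -0.82.

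Each vesicle SNARE gene had a second probe that was not well above background on any array, so these have no measured difference. The second Vamp1 probe, at 125190387 to 125190446 for the transcript ENSMUST00000159547, read between 4.76 and 11.6 in KI and between 6.66 and 11.4 in WT. The second Vamp2 probe, at 68903917 to 68903976 for ENSMUST00000117780, read between 12.5 and 16.6 in KI and between 10.3 and 12.9 in WT. What these transcripts amount to in synaptosomes was therefore not measurable here. Within each array, the main Vamp1 probe minus the main Vamp2 probe was -3.73, -3.28 and -2.77 in KI and -3.06, -3.08 and -2.47 in WT. That difference was lower in KI by 0.39 on average, and the groups overlapped (exact two-sided permutation p = 0.4, smallest possible 0.1). It was -0.16 without KI replicate 1, -0.63 without KI replicate 3 and -0.79 on slide 1 alone or with slide as a block.

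Of the plasma membrane SNAREs, Snap25 had a single probe, on chromosome 2 at 136607709 to 136607768. Its processed signals were 111888, 123165 and 129834 in KI, against 73595, 89832 and 120306 in WT. The scaled log2 values were 6.99, 7.08 and 7.16 in KI and 6.99, 7.27 and 7.19 in WT. The lowest unscaled signals were those of the 2 arrays on slide 2, and after scaling the groups overlapped. The log2 difference was -0.08 (SE 0.12, 95% interval -0.37 to 0.21) with limma's adjusted p = 0.787, and it was between 0.011 and 0.025 with quantile, cyclic loess and the authors' values.

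Stx1a also had 1 probe, on chromosome 5 at 135526477 to 135526536. It had processed signals of 15115, 23157 and 24677 in KI and 10909, 16018 and 23956 in WT. Scaled, these were 4.10, 4.67 and 4.76 in KI, against 4.24, 4.79 and 4.86 in WT. In both groups replicate 1 lay clearly below the other arrays, and that gap exceeded the difference between the group means. KI averaged 4.51 ± 0.36 and WT 4.63 ± 0.34 (SD, n = 3 each), a log2 difference of -0.12 (SE 0.24, limma's adjusted p = 0.842). Without KI replicate 1 the sign turned, to 0.09.

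Of the genes that take the spent bundle apart, Napa came nearest to a difference. Its main probe, on chromosome 7 at 16702417 to 16702476, starts at base 1424 of the transcript. Its processed signals were 45736, 51627 and 55250 in KI and 36144, 45724 and 52505 in WT. The scaled log2 values were 5.69, 5.83 and 5.92 in KI, against 5.97, 6.30 and 6.0 in WT. Every KI array lay below every WT array, though KI replicate 3 and WT replicate 1 were only 0.04 apart. The log2 difference was -0.27 (SE 0.13, 95% interval -0.60 to 0.05), or 0.828 of WT, with an unadjusted p of 0.0869 and an adjusted p of 0.509 by limma. The exact permutation p was 0.1, the smallest that 3 against 3 allow. The log2 difference was -0.17 without WT replicate 2 and -0.14 with the authors' values, and the groups overlapped with normexp, quantile and the authors' values. Napa's second probe, at 16703264 to 16703323 and starting at base 2271, gave a smaller log2 difference of -0.11 (SE 0.14), and its groups overlapped.

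Napb, the brain form of the adaptor, had a pair of probes that went together. The main one, on chromosome 2 at 148520788 to 148520847, read 34132, 39055 and 41874 in KI and 23508, 30274 and 42069 in WT. In scaled log2 values KI read 5.27, 5.43 and 5.52, against 5.35, 5.71 and 5.68 in WT, and the groups overlapped. The log2 differences were -0.17 (SE 0.14) for this probe and -0.12 (SE 0.17) for the other one, at 148521095 to 148521154. Limma's adjusted p was 0.631 and 0.765 for these probes, so neither passed the threshold. The 95% intervals were -0.51 to 0.17 for the main probe and -0.53 to 0.29 for the other. They still include falls to 0.703 and 0.691 of WT, and rises of 1.13-fold and 1.22-fold, so a change was not excluded.

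Both adaptors could be set against each other within each array, where scaling cancels. The main Napb probe minus the main Napa probe was -0.42, -0.40 and -0.40 in KI and -0.62, -0.59 and -0.32 in WT. WT replicates 1 and 2, on slide 2, read lower than the KI arrays and WT replicate 3, which were on slide 1 and lay between -0.42 and -0.32. The group difference was 0.10 (exact two-sided permutation p = 0.4). On slide 1, which sets the KI arrays against WT replicate 3 alone, it was -0.09. The part of the slide was not tested.

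Nsf, the ATPase of disassembly, was read by a bright and a dim probe that differed in direction. The bright one, on chromosome 11 at 103683921 to 103683980, starts at base 2881 and read 46303, 44085 and 51776 in KI and 30096, 43476 and 48286 in WT. Its scaled log2 values were 5.71, 5.60 and 5.83 in KI and 5.70, 6.23 and 5.88 in WT. WT replicate 2 was the highest array and the groups overlapped, with a log2 difference of -0.22 (SE 0.16, limma's adjusted p = 0.593). Without that array it was -0.07.

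The dim Nsf probe, at 103770740 to 103770799, is assigned to a separate Ensembl transcript, ENSMUST00000107009. It was well above background on all 6 arrays, with processed signals of 70.6, 89.2 and 72.1 in KI and 29.4, 76.8 and 31.6 in WT. Scaled, KI read -3.65, -3.35 and -3.66, against -4.30, -2.92 and -4.70 in WT. The KI arrays were close to one another and above WT replicates 1 and 3, while WT replicate 2 lay above them all. The log2 difference was 0.42 (SE 0.44, limma's adjusted p = 0.695). It was 0.95 without WT replicate 2 (unadjusted p = 0.0026, adjusted p = 0.517), 0.06 without WT replicate 3, and 0.04 with normexp, which replaced the background correction and added an offset of 50 to the signal together. Its size thus depended on single arrays and on the processing.

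**Figure D2:**
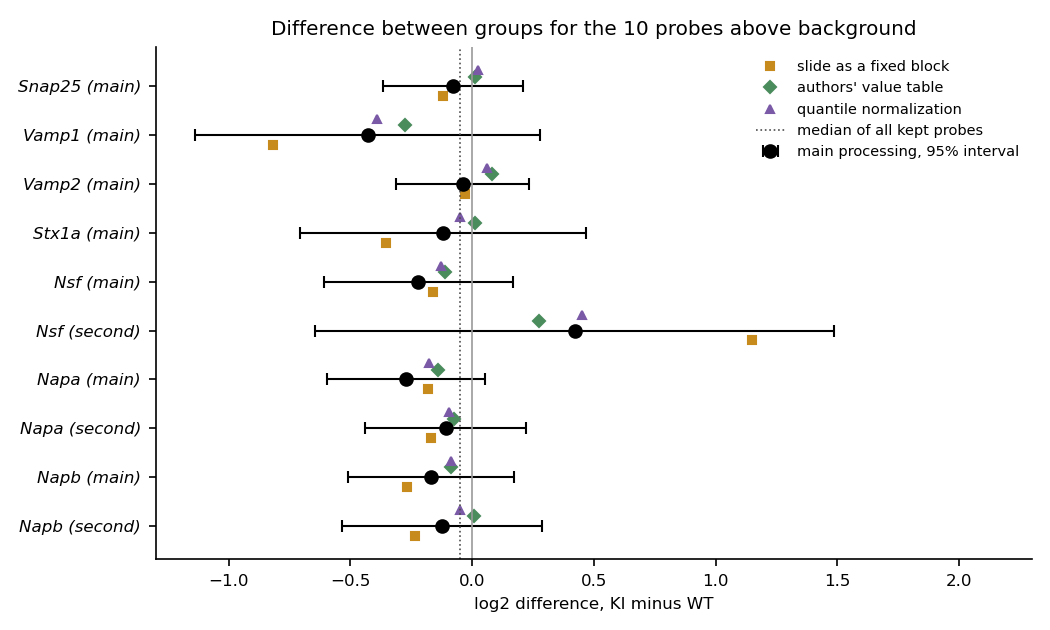
Log2 difference, KI minus WT, for the 10 member probes above background, with 95% intervals from limma in black and the values with slide as a block, quantile normalization and the authors' value table as coloured marks. All 10 intervals include 0, and the dim Nsf probe and Vamp1 move farthest with slide as a block, to 1.15 and -0.82.

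The fusion genes varied between the arrays of both groups. The mean log2 deviation of the 7 main probes from their own means was -0.28, -0.09 and 0.08 in KI replicates 1 to 3, against -0.13, 0.24 and 0.18 in WT replicates 1 to 3. On KI replicate 1, 0 of the 7 were above their own mean, on WT replicate 1 there was 1, Napa, and on WT replicates 2 and 3 all 7 were. Markers of striatal medium spiny neurons, 11 of 11 measured, ran the other way round, with mean deviations of 2.00, 0.49 and -0.99 in KI and 1.43, -1.47 and -1.47 in WT. Their summed level was 57.8 to 316 in KI and 51.1 to 224 in WT. Over the 6 arrays, the order by striatal markers was the reverse of the order by fusion genes, although WT replicates 2 and 3 were nearly level in the striatal markers. In each group, replicate 1 had the highest striatal markers and the lowest fusion genes. Choroid plexus markers, 6 of 8 measured, averaged 0.84, 0.69 and -0.59 in KI and 1.03, -0.90 and -1.06 in WT. Single markers differed, and Ttr and Otx2 were well above background on only 4 and 3 arrays. Clic6, Otx2 and Kl were highest on replicate 1 of both groups. Folr1 was lowest on KI replicate 1, at -4.19, Kcnj13 was lowest on WT replicate 1, at -3.49, and Ttr was highest on KI replicate 2, at -0.50. Of the brainstem and cerebellum markers 6 of 13 were measured, and Hoxb3, Hoxa5, Hoxd3, Slc6a5, Glra1 and Gabra6 were not well above background on any array. The measured ones had mean deviations of 0.23, -0.11 and -0.17 in KI and 0.26, 0.0047 and -0.22 in WT, but single markers differed. Zic1 read 2.44 on KI replicate 1 and 2.51 on WT replicate 1, and at most 1.17 on the other arrays. En2 was also highest on replicate 1 of both groups, Pcp2 was lowest there, at -0.85 and -0.89, and the rest were mixed. Neuron and synapse markers had mean deviations of -0.12, 0.0074 and 0.079 in KI and -0.16, 0.095 and 0.091 in WT. Their mean was thus lowest on replicate 1 in both groups too. Gad1 went the other way, highest on replicate 1 of both groups, and in KI Nefl was lowest on replicate 2 and Map2 on replicate 3. Oligodendrocyte markers were at 0.16, 0.34 and -0.07 in KI and 0.17, -0.44 and -0.16 in WT. By main probe, 11 of 11 striatal, 5 of 6 choroid plexus and 7 of 8 oligodendrocyte markers read higher in KI. The groups overlapped for every marker of these lists. Of the neuron and synapse markers 5 of 10 read higher in KI, and of the brainstem and cerebellum markers 3 of 6. Over all genes 59.1% read lower in KI. The part of regional or cellular makeup in the values of the fusion genes was not tested.

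**Figure D3:**
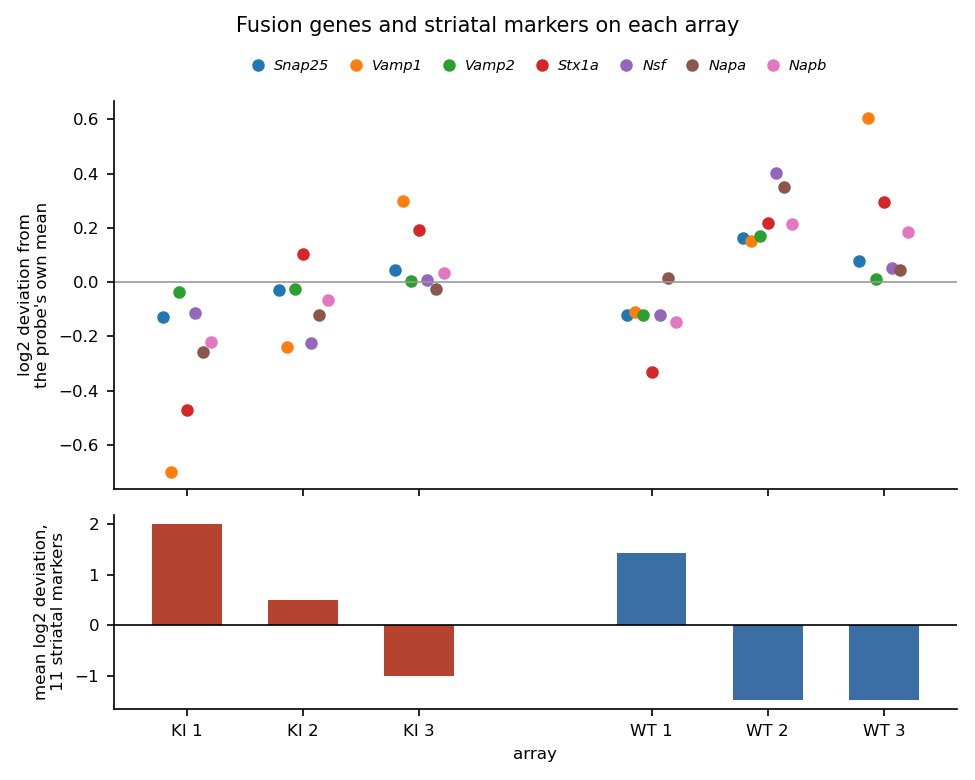
Top: log2 deviation of each main probe from its own mean over the 6 arrays, 1 colour per gene, KI arrays left and WT arrays right. Bottom: mean log2 deviation of 11 striatal markers on the same arrays; the 7 genes lie mostly below 0 on replicate 1 of both groups, where the striatal mean is 2.00 in KI and 1.43 in WT.

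Among themselves, the 7 genes differed in the size of their deviations between arrays. The root-mean-square distance between 2 genes, each centred on its own mean over the 6 arrays, was smallest for Snap25 and Vamp2, at 0.05 log2 units, and 0.06 for Snap25 and Napb. It was 0.09 for Nsf and Napa. Vamp1 stood farthest from the rest, at 0.23 from Stx1a and 0.39 from Vamp2. This distance grows with the size of the deviations and does not measure shape alone. The deviations of Vamp1 were -0.70, -0.24 and 0.30 in KI and -0.11, 0.15 and 0.60 in WT. On each array they had the sign of the mean of the 7 genes, which includes Vamp1. Over 6 arrays the SD of Vamp1 was 0.45 and that of Stx1a 0.32, against a median of 0.21 over all kept probes, while Vamp2 had 0.10 and Snap25 0.12. That median covers bright and dim probes alike, so it is not matched to the brightness of these genes. Of 15523 other genes with a RefSeq symbol, those nearest to Vamp1 by the same distance were Plekha4 (0.10), Sytl1, a synaptotagmin-like protein (0.12), and Kcns1, a modifier subunit of potassium channels (0.13). The nearest to Stx1a were Tlcd3b (0.04), Car10 (0.05) and Fxyd7 (0.05). For the flat profile of Snap25 they were Cdipt, Hs1bp3 and Atp13a2, at 0.01 to 0.02. Distances over 6 arrays rest on few points, and all genes share the same arrays and scaling.

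The other SNARE genes, most of which serve the Golgi, endosomes, lysosomes and non-neuronal exocytosis, gave 30 measured genes of 32 on the array. By limma's adjusted p 0 passed in either direction, where 0.00954% of all genes did, and 0 had an unadjusted p under 0.05, where 10% of all 20975 did. They were 17 higher and 13 lower in KI, with a median log2 difference of 0.03. The 4 of smallest p were Vamp3, Vamp5, Vamp7 and Vamp8. Vamp3, the synaptobrevin of recycling endosomes, read higher in all KI arrays than in any WT array, with a log2 difference of 0.57 (SE 0.25, limma's adjusted p = 0.484). WT replicate 2 read -2.40, against -1.51 and -1.57 on WT replicates 1 and 3. In this list the groups were without overlap for 4 genes higher and 1 lower in KI, where 19.9% of all probes showed this in either direction. Vamp5 differed by -0.22, Vamp7, a SNARE of late endosomes, by 0.18 and Vamp8 by 0.18, each with an adjusted p above 0.5 by limma.

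Regulators and chaperones of the SNAREs gave 30 measured genes of 31. Again 0 passed limma's adjusted threshold, and at an unadjusted p under 0.05 there was 1 higher in KI and 1 lower, against 4.15% and 5.86% of all genes. Their median log2 difference was -0.08, with 11 higher and 19 lower in KI. The vesicle-priming factor Unc13a had the smallest p, at -0.48 (SE 0.18, limma's adjusted p = 0.460). Stxbp3, which binds syntaxins outside the synapse, differed by 0.37 (SE 0.15), and all 3 of its probes had that sign. Txlna, a syntaxin-binding taxilin, differed by 0.23 on its brightest probe, and 1 of its 2 probes had that sign. Hspa8, the chaperone that works with the vesicle protein of Dnajc5 on SNAP-25, differed by -0.32, with 2 of 3 probes of that sign. The remaining adaptor gene, Napg, which encodes gamma-SNAP, differed by 0.11 (SE 0.15).

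**Figure D4:**
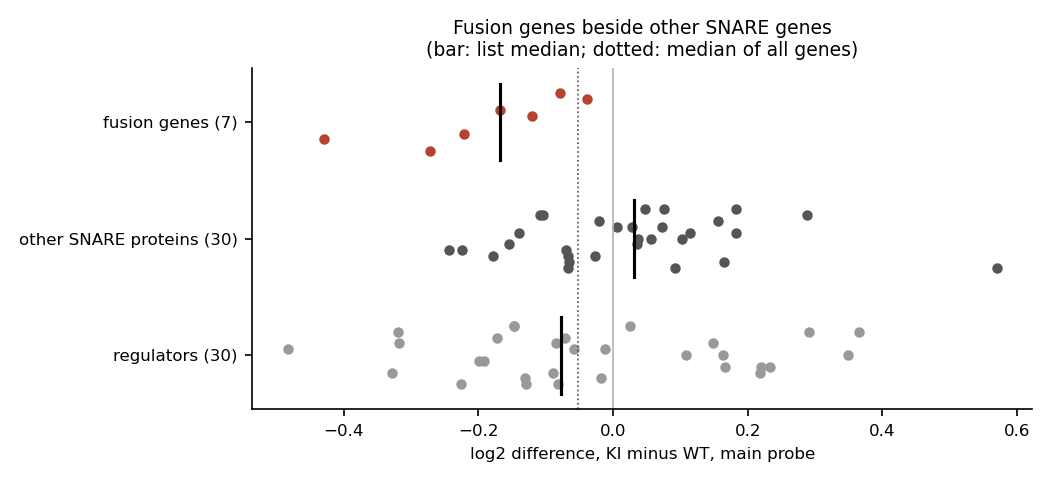
Log2 difference, KI minus WT, of the main probe of each gene, for the 7 fusion genes, 30 other SNARE genes and 30 regulators, with a bar at each list's median and a dotted line at the median of all genes. The fusion genes lie between -0.43 and -0.04, inside the range of the regulators.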

How the data were processed

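The members, gene lists and tests were chosen with earlier results of these data known. The authors extracted spots with Feature Extraction 10.7.3.1 from Agilent, per the file headers, and the deposited intensity is background-subtracted and detrended within each array, with coordinates on build mm9. The authors' deposited value table is in log2 units; each of its columns has the rank order of the raw median intensity of its array, column medians lie between 6.55 and 6.56, while the way they were made alike is not stated there. RNA carried the dye Cy3, per the labels, the RNA integrity number was 10, and the input was 0.2 µg, or 0.0 µg for KI replicate 1.

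Control spots were left out. Log2 processed intensities were scaled by the 75th percentile of each array, spots of a probe were averaged, and a probe was kept when well above background on at least 3 of 6 arrays, leaving 29318 of 55681. The brightest kept probe stood for a gene. Groups were compared over probes with limma 3.58.1 in R 4.3.3 (two-sided, Benjamini-Hochberg adjusted, threshold 0.05), which was tested on simulated data, and single contrasts with exact permutation. All member probes are named, with the 4 genes of smallest p in each list. The 3 nearest genes were found for every member and are named only for Vamp1, Stx1a and Snap25. Napg was named after its value was seen. Probes were named through RefSeq (31381 of 55681). The number of arrays limits the precision.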

Additional observations from a re-analysis of the deposited data

How the results depend on the processing

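Under 20 alternatives 0 member probes passed the adjusted threshold, and under 19 of them, which were run for the lists, 0 other SNARE genes and 0 regulators did. The slides hold 3 KI and 1 WT arrays and 0 KI and 2 WT arrays, so slide as a fixed block and slide 1 alone rest on WT replicate 3. The 2 probes called over the whole array became 10 with slide as a fixed block, 4 on slide 1 alone, 1 with normexp, and 0 from the deposited values, without a filter on dim probes, with probes above background on all 6 arrays, and without number 1 of both groups (chosen after seeing the data); leaving out 1 array gave 0 to 5. Vamp1, Nsf, Napa and Napb main probes kept their sign under all 20. Signs turned for Snap25 (0.025 with quantile, 0.023 with cyclic loess, 0.011 with the authors' values), Vamp2 (0.060, 0.050 and 0.082), Stx1a (0.011 with the authors' values), the second Napb probe (0.0068 with the authors' values), and Napb minus Napa (-0.089 with slide as a block and on slide 1 alone). On leaving out 1 array Stx1a ranged from -0.32 to 0.087, and Vamp2 from -0.11 to 0.036. The cause was not tested. Replicate numbers were not taken as pairs: deviations of same-numbered arrays correlated at 0.36, -0.04 and 0.22 over 29318 probes, and KI replicate 2 was nearer to WT replicate 3. With a replicate block 0 probes were called, and Vamp1 had an adjusted p of 0.470 (unadjusted 0.0162).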
